A study of Mus musculus with 6 samples.

Results

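The MYC, MAX and MXD network comprised 10 genes here, taken by symbol from the platform annotation: Myc, Mycn, Mycl, Max, Mxd1, Mxi1, Mxd3, Mxd4, Mnt and Mga. They were measured by 27 of the 45101 probe sets, and 18194 genes were represented in all. Expression was profiled on 6 one-colour arrays of mouse leukemias driven by ΔE-NOTCH1, an activated NOTCH1 without its extracellular part. The 3 wild-type arrays (Sh2b3 wild type ΔE-NOTCH1, strain C57BL6) came from tumours of C57BL6 donor marrow, and the 3 knockout arrays (Sh2b3-/- ΔE-NOTCH1, no strain label) from tumours of Sh2b3–/– donor marrow. Donors in both groups were 8 weeks old. In both groups lineage-negative progenitors received the MigR1-ΔE-Notch1 retrovirus, a vector with a green fluorescent reporter. Infected Lin-Sca1+ cells were then transplanted into irradiated C57BL6 recipients, so that the host cells of every tumour carry Sh2b3. Each tumour RNA, 10 ng, was amplified before labelling, which can distort differences. Sh2b3 encodes LNK, an adaptor that restrains cytokine receptor signalling, and the comparison addresses how leukemias without it differ in their transcripts.

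MYC proteins are basic helix-loop-helix leucine zipper factors that bind DNA only as heterodimers with MAX, at E-boxes of the letters CACGTG. The MXD proteins, MNT and MGA take the same partner and the same sites but repress. Growth or exit from the cell cycle is therefore thought to follow the balance between MYC and its antagonists. Activated NOTCH1 induces Myc directly in T cell leukemia, and MYC drives much of the growth programme of these tumours. Mycn is the paralog known from early thymocytes and neural tissue.

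Wild-type replicates 1 and 2 were nearly alike, with an SD of their difference of 0.234 over 6725 genes with a mean above 5 on the log2 scale, against 0.503 to 0.689 for every other pair of arrays. Their low spread weighs on every wild-type SD below. The better Sh2b3 probe set read 4.25, 4.83 and 4.08 in wild type and 2.29, 2.24 and 2.29 in knockout. T lineage markers were high: Cd3d, a chain of the T cell receptor complex, read 12.13 to 12.63, but Cd4 only 2.23 to 4.63. Of markers of other cells, those of monocytes, macrophages and granulocytes did not agree. S100a8, a granulocyte gene, read 10.97 to 11.30 and S100a9 10.70 to 11.18, but Mpo 3.27 to 5.99 and Cd68 2.67 to 3.97. Elane read 2.06 to 2.52 and Itgam 1.90 to 2.56, both at background. The erythroid markers differed among themselves: Slc4a1 read 10.70 to 12.09 and Alas2 6.65 to 8.73, but the probe set of Hba-a1 only 1.55 to 1.76, at background on all 6 arrays. In such bulk samples, fewer cells of a type and less RNA per cell cannot be told apart.

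In short, Myc was high and nearly level on all arrays, Mycn was very high by 1 of its 3 probe sets and lower on most knockout arrays, and Mycl was at or near background. Of the antagonists, Mxd4 was lower in all 3 knockout arrays by a log2 fold change of -1.07, and Mxd3 was slightly higher. No member passed the test over all genes: 0 of 10 had an adjusted p under 0.05 by limma, against a background of 0% of the 12565 genes tested (0 genes). The lowest adjusted p was 0.628 among the members and 0.157 among all genes. At an unadjusted p under 0.05 there were 3 members, Mycl, Mycn and Mxd4, against 982 genes, 7.82% of all. The groups did not overlap for 3 members, Mycl, Mxd3 and Mxd4, against 13.8% of all genes. The median log2 fold change was 0.12 over the members and -0.01 over all genes, with 7 members higher and 3 lower, against 6043 and 6522 of all genes. With 10 genes these counts say little about the network as a whole, and the results below are those of single genes.

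Upstream sequence is shown for Mxd4 and Mycn, the 2 members above background with an unadjusted p under 0.05. Both stretches are the 250 bases before the annotated start in RefSeq's annotation of GRCm38.p6, printed along the gene's strand, which is the minus strand for both. Capitals mark matches, on either strand, to the E-box CACGTG or to TTTGGCGC, letters that E2F factors are known to bind. The first lies at chr5:34187711-34187960 and the second at chr12:12941837-12942086.
Mxd4: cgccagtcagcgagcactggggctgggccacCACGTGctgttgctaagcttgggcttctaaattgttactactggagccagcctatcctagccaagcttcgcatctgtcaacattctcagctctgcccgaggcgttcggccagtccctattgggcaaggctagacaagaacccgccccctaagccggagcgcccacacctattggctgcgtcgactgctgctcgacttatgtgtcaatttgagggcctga
Mycn: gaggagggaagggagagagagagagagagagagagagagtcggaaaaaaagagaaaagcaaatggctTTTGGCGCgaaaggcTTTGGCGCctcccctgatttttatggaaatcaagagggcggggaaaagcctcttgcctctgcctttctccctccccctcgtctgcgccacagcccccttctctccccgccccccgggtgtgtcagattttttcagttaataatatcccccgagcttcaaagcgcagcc

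The E-box in the Mxd4 stretch begins 219 bases before the start. Promoters of 9 members were in the table, Myc being the exception, and 2 of the 9, Mxd4 and Mnt, held this E-box within 250 bases, against 6.02% of all 32851 promoters of the same length. The TTTGGCGC motif occurred in 0.417% of all promoters and in 1 member, Mycn, where matches begin 183 and 168 bases before the start and do not overlap. The letters TGGGAA, bound by RBPJ, the DNA-binding partner of NOTCH, were in 21.6% of promoters and in 2 members, Mxd3 and Mxi1, on the reverse strand. Members were counted by gene and the percentages by promoter, and a gene with several promoters, such as Mxi1, has more chances of a match. A match describes the letters and is not evidence of binding.

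Levels are log2 signals of the GCRMA values the authors deposited. Each gene is given by its probe set with the highest mean, and a probe set is called above background where it exceeds 2.84, the 90th percentile of 252 values from 17 genes chosen as typical of other tissues. One of them, Mbp, is also transcribed by lymphocytes and read up to 8.74; without it the limit was 2.51, an alternative added after the values were seen. Signals of different probe sets depend on the probes. The percentiles given for Myc and Mycn therefore place a signal among those of its array and do not rank amounts of RNA. By either limit 17 of the 27 member probe sets were above background on all 6 arrays. Below, background means under 2.84, and 6 of the weaker member probe sets passed 2.51 on more arrays than they passed 2.84.

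**Figure D1:**
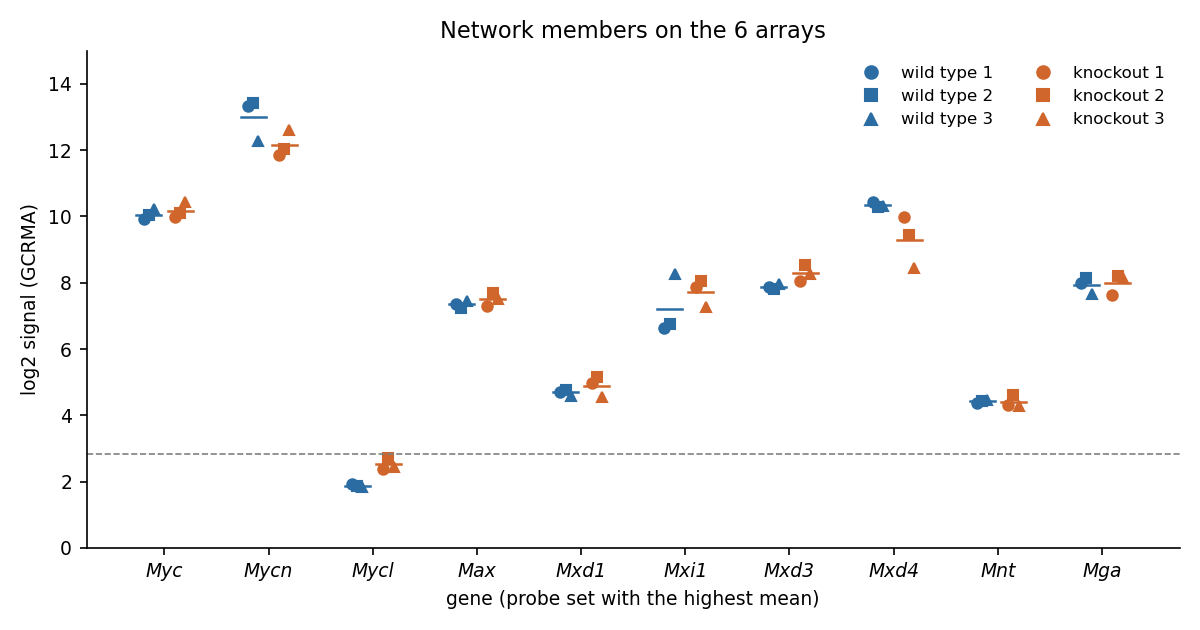
Log2 GCRMA signal (vertical axis) of the 10 members (horizontal axis) on each wild-type array (blue) and knockout array (orange); symbols give the replicate number, short lines the group means and the dashed line the background limit of 2.84. Mycl lies under the limit on all arrays, the 3 knockout values of Mxd4 lie under its 3 wild-type values, and wild-type replicate 3 stands apart from the other wild-type arrays for Mycn and Mxi1.

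Myc itself, the oncogene that activated NOTCH1 induces, differed little between any of the 6 arrays. Its single probe set read 9.91, 10.04 and 10.21 in wild type and 9.97, 10.09 and 10.43 in knockout, between the 96.0th and 97.1th percentile of the probe sets of an array. The groups overlapped, and the whole range over the 6 arrays was 0.52. The means were 10.05 ± 0.15 and 10.16 ± 0.24 (SD, n = 3), so the knockout stood 0.11 higher on the log2 scale, with a standard error of 0.15 and an adjusted p of 0.866 by limma. The 95% interval of the difference, -0.24 to 0.46, leaves out a change of 1 in either direction on the log2 scale. Without knockout replicate 3, the highest array, the difference was -0.02.

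Mycn read very high, but on 1 of its 3 probe sets. That probe set, 1425923_at, read 13.33, 13.42 and 12.28 in wild type and 11.86, 12.03 and 12.60 in knockout, between the 99.0th and 99.7th percentile of all probe sets of an array. Wild-type replicates 1 and 2 were highest, and wild-type replicate 3 lay below knockout replicate 3, so that the groups overlapped. The means were 13.01 ± 0.63 and 12.16 ± 0.39 (SD, n = 3), which puts the difference at -0.85 with a 95% interval of -1.56 to -0.13, an unadjusted p of 0.0258 and an adjusted p of 0.634 by limma. Without wild-type replicate 3 it was -1.21 (adjusted p = 0.0785 by limma, in a range of 0.0785 to 0.984 over 15 alternatives), and with wild-type replicates 1 and 2 averaged into 1 sample -0.66.

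The other Mycn probe sets did not show this signal. Probe set 1425922_a_at read 1.88 to 2.54 in wild type and 2.29 to 2.59 in knockout, and 1417155_at read 1.80 to 1.99 in wild type and 2.06 to 2.40 in knockout. Both lie under 2.84 on every array, although 1425922_a_at passed 2.51 on 3 arrays, and their group means differed by 0.26 and 0.29 in the opposite direction. With the mean of the 3 probe sets the Mycn difference was -0.10. Why the probe sets of this gene disagree was not tested, and everything said of Mycn here rests on 1425923_at.

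Mycl, the paralog known from small cell lung cancer and dendritic cells, was under 2.84 on every array. Its probe set with the highest mean read 1.93, 1.87 and 1.85 in wild type and 2.39, 2.72 and 2.45 in knockout. The knockout values were all higher, the difference being 0.64 with an unadjusted p of 0.00173 and an adjusted p of 0.628 by limma, but they stay under the limit of 2.84. At the limit of 2.51, knockout replicate 2 was above background and the other 5 arrays were not. The other 2 probe sets read 1.27 to 1.75 and overlapped between groups. Measured this way, Myc and Mycn were the paralogs with signal on each of the 6 arrays, and Mycl read at or near background.

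Max, the shared partner of these proteins, was level. It read 7.37, 7.25 and 7.46 in wild type and 7.30, 7.69 and 7.51 in knockout. The groups overlapped, with a log2 fold change of 0.14 and a 95% interval of -0.28 to 0.56 (adjusted p = 0.856 by limma).

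Mxd4 was the antagonist with the largest difference. MXD4 represses E-box genes with MAX and the SIN3 corepressor. Probe set 1434378_a_at read 10.44, 10.30 and 10.31 in wild type and 9.97, 9.43 and 8.43 in knockout. Every knockout array was below every wild-type array, knockout replicate 3 by the widest margin. The means were 10.35 ± 0.08 and 9.28 ± 0.78 (SD, n = 3). The knockout was lower by a log2 difference of -1.07 (SE 0.34, 95% interval -1.85 to -0.30), or 2.1-fold in signal. The unadjusted p was 0.0126, and 236 genes had a smaller one. The adjusted p was 0.629 by limma, so the difference did not pass over all genes. Of all genes tested, 0.891% had a difference at least as far below 0.

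The lower Mxd4 signal was seen on each of its 3 probe sets above background. Probe set 1434379_at read 7.69, 7.46 and 7.17 in wild type and 6.86, 6.43 and 5.54 in knockout, and 1422574_at read 7.27, 6.99 and 7.33 against 6.85, 6.13 and 5.43. Neither overlapped between groups, and the log2 fold changes were -1.16 and -1.06. In all 3 the order of the knockout arrays was the same, with replicate 1 highest and replicate 3 lowest. Probe sets of 1 gene read the same RNA and are not replicates. Among 1558 genes with 3 or more probe sets above background, all of them were free of overlap in 1 direction for 1.99%; this count was chosen after the values were seen, and with the limit of 2.51 it was 1.57% of 1850 genes. The fourth probe set, 1422575_at, read 1.70 to 2.67, at background, and overlapped.

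The size of the Mxd4 difference depended on knockout replicate 3. Without that array the log2 fold change was -0.65, and without knockout replicate 1 it was -1.42. With wild-type replicates 1 and 2 averaged it was -1.06. The unadjusted p stayed between 0.00135 and 0.0385 over 15 alternatives, and the adjusted p between 0.237 and 0.984. Other markers moved on the same array: measured from the wild-type average, the mean of 13 T lineage genes lay at 0.28, 0.19 and -0.66 on knockout replicates 1, 2 and 3, and at -0.24 to 0.17 on wild-type arrays, Slc4a1 read 11.54, 12.09 and 10.70, and Alas2 read 7.30, 8.73 and 6.65, while Hba-a1 stayed at background. The T lineage genes differed among themselves on knockout replicate 3. Cd3e, Cd3g, Thy1, Ptcra and Dntt lay within the wild-type range there, and the other T lineage genes lay under it. Cd8b1 read 8.8 on that array, against 10.24 to 10.36 in wild type, and Cd3d 12.13 against 12.24 to 12.46. The part of cell content in the Mxd4 difference was not tested.

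**Figure D2:**
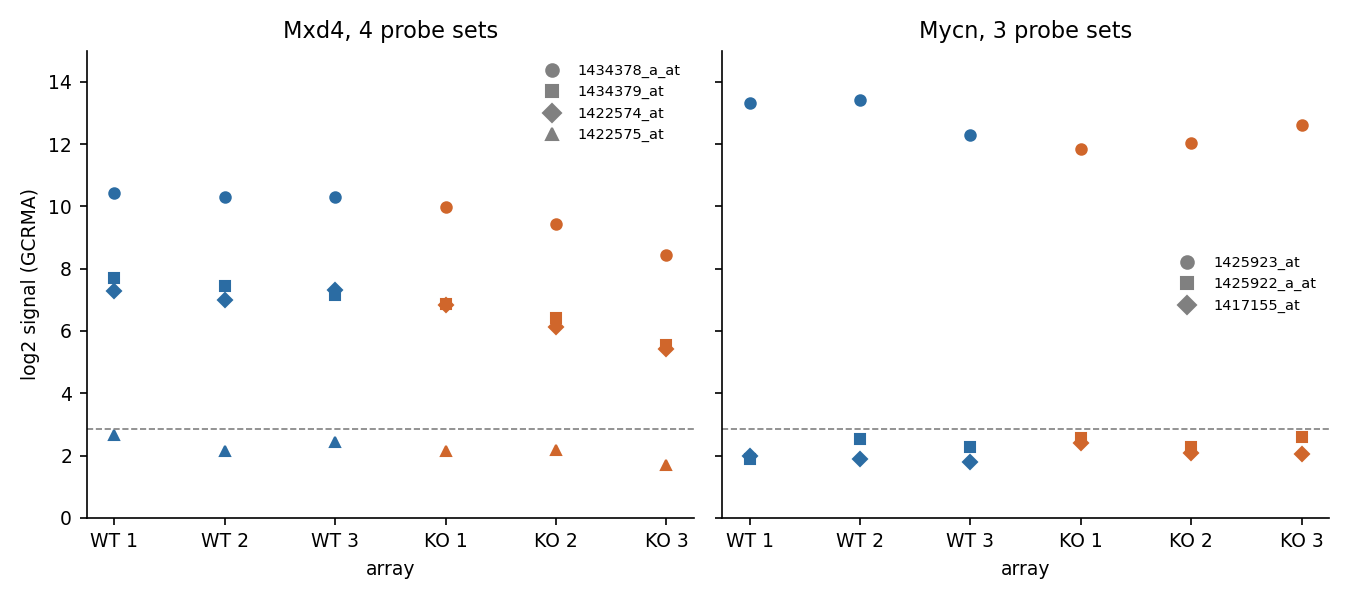
Log2 GCRMA signal (vertical axis) of every probe set of Mxd4 (left) and Mycn (right) on the 6 arrays (horizontal axis; wild type in blue, knockout in orange); each symbol is 1 probe set and the dashed line is the background limit of 2.84. The 3 upper probe sets of Mxd4 fall in the same order over the knockout arrays, whereas Mycn is read by 1 probe set near 12 to 13 and by 2 at background.

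Mxd3, the family member known for expression in S phase and in cycling progenitors, leaned the other way. Its main probe set read 7.87, 7.81 and 7.97 in wild type and 8.04, 8.53 and 8.27 in knockout. All knockout values were higher, by a narrow margin at replicate 1. The log2 fold change was 0.40 with a 95% interval of -0.01 to 0.80 (unadjusted p = 0.0541, adjusted p = 0.644 by limma). The other 2 probe sets, with log2 fold changes of 0.24 and -0.11, overlapped between groups, and the mean of the 3 gave 0.17.

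Mxi1, also called MXD2, varied most within the wild-type group. It read 6.64, 6.75 and 8.27 in wild type and 7.86, 8.05 and 7.26 in knockout. Wild-type replicate 3 was the highest of all 6 arrays and the other wild-type arrays were the lowest, so the groups overlapped. The log2 fold change was 0.50 with a 95% interval of -0.50 to 1.51 (adjusted p = 0.772 by limma). Without wild-type replicate 3 it was 1.03 (unadjusted p = 0.00624, adjusted p = 0.283 by limma), and with wild-type replicates 1 and 2 averaged it was 0.24. The second probe set read 3.15, 3.44 and 4.31 in wild type and 3.74, 3.24 and 3.32 in knockout, again highest on wild-type replicate 3. Its log2 fold change was -0.20, in the opposite direction.

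Mxd1, the antagonist induced when blood cells differentiate, read 4.71, 4.77 and 4.58 in wild type and 4.97, 5.14 and 4.55 in knockout. The lowest and the highest values were both in knockout, and the log2 fold change was 0.20 (95% interval -0.41 to 0.81, adjusted p = 0.857 by limma). Of its other probe sets, 1 overlapped above background, at 2.89 to 4.13 with a log2 fold change of -0.24, and 1 was at background.

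Mnt, the broadly expressed antagonist that is present beside MYC in cycling cells, read 4.36, 4.42 and 4.47 in wild type and 4.32, 4.61 and 4.29 in knockout. The groups overlapped, with a log2 fold change of -0.01 (95% interval -0.56 to 0.54, adjusted p = 0.994 by limma); after quantile normalization it was 0.16. Its second probe set was at background.

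Mga, a large factor with a T-box beside its helix-loop-helix domain and the scaffold of the repressive PRC1.6 complex, was read by 5 probe sets. The main one read 7.99, 8.15 and 7.67 in wild type and 7.64, 8.20 and 8.15 in knockout, an overlap with a log2 fold change of 0.06 (95% interval -0.44 to 0.56, adjusted p = 0.952 by limma). Probe set 1422646_at read 3.79, 3.63 and 3.44 against 3.21, 3.26 and 2.90, without overlap, with a log2 fold change of -0.50 (unadjusted p = 0.0538), close to background. A further probe set stood at -0.35 with overlap, and the remaining 2 were at or near background. The Mga probe sets thus gave no common direction, and their mean gave -0.15.

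**Figure D3:**
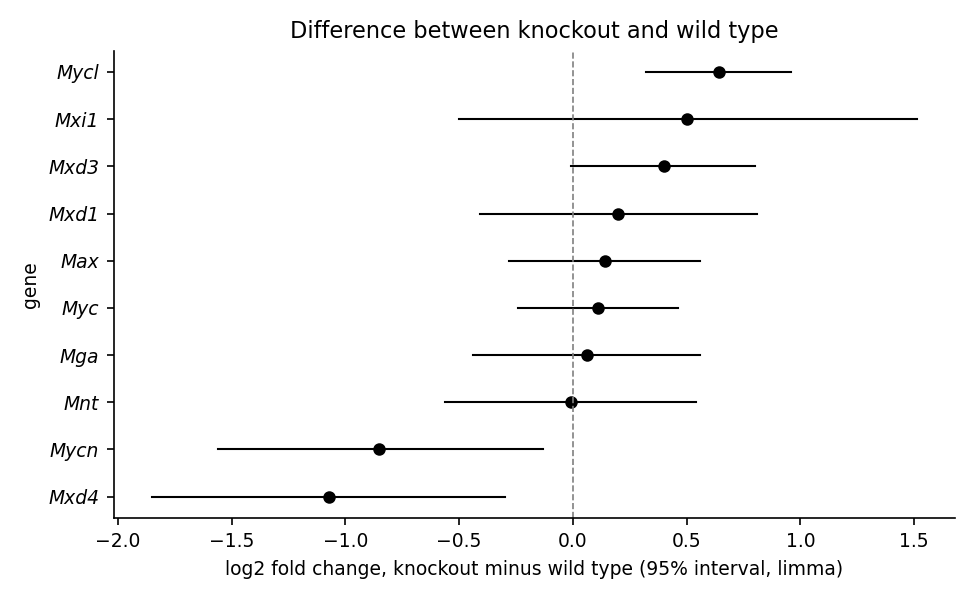
Log2 fold change, knockout minus wild type (horizontal axis), of the 10 members (vertical axis), with points for limma's estimates and bars for 95% intervals that are not adjusted for the number of genes. The intervals of Mycn and Mxd4 lie below 0 and that of Mycl above it, close to the background limit.

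Set side by side by array, the members did not shift together. Relative to its wild-type mean, Mycn stood at -1.15, -0.98 and -0.41 on knockout replicates 1, 2 and 3, while Mxd4 stood at -0.38, -0.92 and -1.92. The array with the smallest Mycn difference was thus the array with the largest Mxd4 difference. Knockout replicate 3 also had the highest Myc, 0.38 above the wild-type mean. Wild-type replicate 3 combined the lowest wild-type Mycn, at -0.73, with the highest Mxi1, at 1.05.

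**Figure D4:**
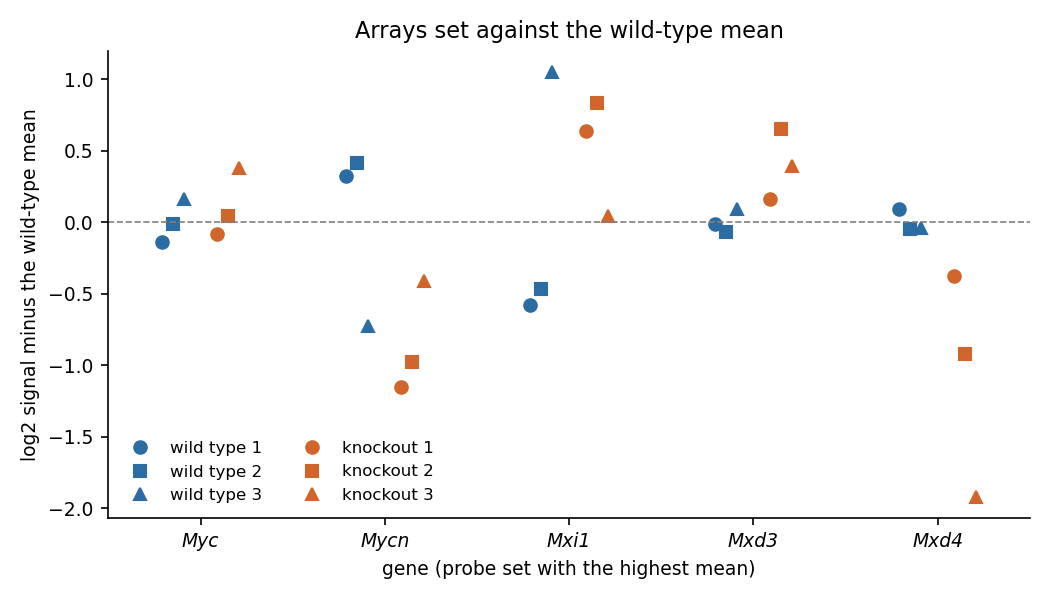
Log2 signal minus the mean of the 3 wild-type arrays (vertical axis) for 5 members (horizontal axis), with wild-type arrays in blue, knockout arrays in orange and symbols for the replicate number. Knockout replicate 3 is lowest for Mxd4 at -1.92 and highest for Myc at 0.38, and wild-type replicate 3 lies apart from the other wild-type arrays for Mycn and Mxi1.

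The genes most like each member were found by the root mean square distance between values centred on their mean over the 6 arrays, among 6724 other genes with a mean above 5. For Myc they were Usp28, a deubiquitinase that stabilises MYC protein, at 0.031, Hsp90b1, a chaperone of the endoplasmic reticulum, at 0.038, Snrpa1, a component of the U2 spliceosome particle, at 0.045 and Ube2f, which conjugates NEDD8, at 0.049. Usp28 read 5.06, 5.16 and 5.27 in wild type and 5.05, 5.18 and 5.50 in knockout. For Mycn they were Ccdc134 at 0.127, Nxpe3 at 0.156, Igf2r, the receptor for mannose 6-phosphate and insulin-like growth factor 2, at 0.197 and Rgs3, which turns off G proteins, at 0.211. Ccdc134 read 7.48, 7.43 and 6.70 in wild type and 6.05, 6.27 and 6.70 in knockout, high on the same wild-type arrays as Mycn. For Mxd4, added after its values were seen, they were Map7, a microtubule-binding protein, at 0.112, Twsg1, a modulator of bone morphogenetic proteins, at 0.115, 1110008P14Rik at 0.175 and Osbpl2, a lipid-binding protein, at 0.185. The distances are not scaled, and the root mean square of the centred values was 0.172 for Myc, 0.603 for Mycn and 0.703 for Mxd4. Distances of different members therefore cannot be compared. A match over 6 arrays is a description of these arrays.

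A list of NOTCH receptors (Notch1 and Notch3) and NOTCH-dependent genes (Dtx1, Hes1 and Ptcra) read lower in knockout in 5 of 5 genes, with 0 past the threshold and a median of -0.35. Of all 12565 genes tested 6522 were lower, with a median of -0.01. Over the genes kept by a filter at the 60th percentile of probe set means the median was -0.067. Notch3 read 9.29, 9.42 and 9.04 in wild type and 8.36, 8.79 and 8.88 in knockout (log2 fold change -0.57, adjusted p = 0.629 by limma). Dtx1, a direct NOTCH target, read 12.22, 12.16 and 11.20 in wild type and 11.17, 11.24 and 11.27 in knockout. As with Mycn, wild-type replicates 1 and 2 were high and wild-type replicate 3 was near the knockout arrays. Notch1 had -0.35 (whether its probes also read the retroviral transcript was not tested), and Ptcra, the pre-T cell receptor chain, -0.32, while Hes1 had -0.11. Hes1 and Ptcra were lowest of all on wild-type replicate 3, at 7.08 and 10.41. Measured from the wild-type average, the list mean lay at 0.25, 0.16 and -0.42 on wild-type replicates 1, 2 and 3. On knockout replicates 1, 2 and 3 it lay at -0.5, -0.31 and -0.38, so wild-type replicate 3 lay among the knockout arrays.

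Cofactors of MYC and enzymes of its turnover stood lower in 14 of 15 tested genes and higher in 1, with a median of -0.22 and 0 past the threshold. Of all 12565 genes 6522 were lower, with a median of -0.01, or -0.067 with the filter at the 60th percentile. Fbxw7, the ubiquitin ligase subunit that marks MYC and NOTCH1 for degradation, read 8.38, 8.75 and 8.11 in wild type and 7.59, 7.99 and 7.62 in knockout, which differ by -0.68. Gsk3b, the kinase that primes MYC for that ligase, read 7.59, 7.74 and 7.98 against 7.12, 7.41 and 7.18, at -0.53. Their adjusted p were 0.629 and 0.634 by limma. They were the 2 of 15 tested genes of the list without overlap between groups, against 13.8% of all genes. The acetyltransferase genes Kat2a and Kat5, at -0.39 and -0.31, overlapped. Measured from the wild-type average, the list mean lay at -0.46, -0.16 and -0.06 on knockout replicates 1, 2 and 3, lowest on replicate 1.

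Genes that MYC is known to activate stood lower in 19 of 24 and higher in 5, with a median of -0.12 and 0 past the threshold. Against this, 6522 of all 12565 genes were lower, and the median was -0.067 with the filter at the 60th percentile. Gart, an enzyme of purine synthesis, read 8.81, 8.55 and 8.64 in wild type and 7.98, 8.22 and 8.50 in knockout. The log2 fold change was -0.43 (adjusted p = 0.637 by limma). Gart was the 1 gene of the 24 without overlap, against 13.8% of all genes. Ppat, the first enzyme of the same pathway, had -0.30, lactate dehydrogenase Ldha -0.25 and the translation factor Eif4a1 -0.14, all with overlap. The list mean was -0.27, -0.11 and 0.09 on knockout replicates 1, 2 and 3 and between -0.05 and 0.09 on wild-type arrays. Proliferation genes had 5 higher and 5 lower of 11, with a median of 0.00 and list means of -0.48, 0.04 and 0.21 on the same 3 knockout arrays. MYC target and proliferation means were thus lowest on knockout replicate 1, where Mycn was lowest and Mxd4 least changed; a relation between them was not tested.

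Genes that MYC is known to repress had 4 higher and 1 lower of 5 tested, with a median of 0.26 and 0 past the threshold. Of all 12565 genes tested 6043 were higher, with a median of -0.01. Cdkn1a, at 0.26, read 2.4 to 3.83 and passed 2.84 on 4 arrays, and Gadd45a had 0.07. Cdkn1b, which encodes the cell cycle inhibitor p27, read 8.95, 8.99 and 9.16 in wild type and 9.71, 10.10 and 8.85 in knockout. Knockout replicates 1 and 2 were above all wild-type arrays and knockout replicate 3 below them, and over all 3 the difference was 0.52 (adjusted p = 0.682 by limma). Ndrg2, at 0.74, lay under 2.84 on all arrays and above 2.51 on knockout replicates 1 and 2.

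The corepressors used by MXD proteins and MNT had 2 higher and 5 lower of 7 tested, with a median of -0.02 and 0 past the threshold. Sap30, a SIN3 subunit, read 8.73, 8.63 and 9.15 in wild type and 9.13, 9.71 and 9.65 in knockout, with overlap by 0.02, at 0.66 (unadjusted p = 0.0130, adjusted p = 0.629 by limma). The deacetylase gene Hdac1 had -0.20, Hdac2 -0.15 and Rbbp4 0.03. Partners of MGA in PRC1.6 had 4 higher and 3 lower of 7 tested, with a median of 0.07, and Tfdp1 was lowest at -0.38 (unadjusted p = 0.0319, adjusted p = 0.634 by limma). In the MLX branch, a parallel network of nutrient sensing, Mlx had -0.14 and Mlxip -0.50, and Mlxipl was at background.

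Markers of other cell types were read on the same arrays. B cell markers had higher knockout means in 6 of 6 tested genes, 0 of them past the threshold. Of all 12565 genes tested 6043 were higher. The B cell list mean lay 0.68 and 0.98 above the wild-type average on knockout replicates 1 and 2 and at -0.20 on replicate 3. Cd79a and Pax5 were under 2.84 on all arrays, and above 2.51 on 2 and 1 of them. Ebf1 read 2.13 to 3.35 and passed 2.84 on 2 arrays. Cd79a, Pax5 and Ebf1 differed by 0.14, 0.11 and 0.12, and Blnk, Cd79b and Ms4a1 by 1.07, 0.87 and 0.6. Monocyte, macrophage and granulocyte markers had 6 higher and 3 lower, with list means of 5.73 to 6.33 in wild type and 5.98 to 6.36 in knockout, and Itgam and Elane under 2.84 on all arrays and above 2.51 on 1 each. Of the 3 NK cell markers, Klrd1 read 1.36, 1.57 and 1.58 in wild type and 2.83, 3.06 and 1.66 in knockout, above the limit of 2.84 on knockout replicate 2 alone; its mean was too low for it to be tested. The NK cell markers Ncr1 and Klrk1 and the stromal genes Col1a1, Col1a2 and Col3a1 were at background on all arrays, with Col1a1 above 2.51 on 1. The part of these cells in the signals of the network was not tested.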

How the data were processed

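Per the submitters' processing notes the authors used GCRMA; its settings were not given in the sources used here. The deposited values are log2 signals per probe set (base 2 taken from their range), with array medians of 2.26 to 2.36, and were used without further normalization. The number of arrays, 6, limits the precision. The labels say biological replicate and triplicate RNA isolation, and link no array to an animal, so each p-value reflects only how much these arrays vary, which may be technical variation.

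Probe sets with 1 symbol (34958; several in 932, none in 9211) were kept, the one with the highest mean stood for its gene, and genes were tested if that mean exceeded 2.04 (40th percentile over probe sets), which left 12565 genes with all 10 members among them. The knockout and wild-type arrays were compared with limma 3.58.1 in R 4.3.3 (lmFit, eBayes with trend, two-sided, Benjamini-Hochberg over all genes, threshold 0.05). In simulated data of 12565 genes, log2 changes of 1, 2, 3 and 4 were detected in 41.8%, 84.1%, 94.5% and 97.7% of the altered genes. The 20 simulations drew independent normal noise for each gene and altered a set of genes by these amounts, with a mean of 6.85 false calls. The shares may not hold for the real arrays, where 0 genes passed and wild-type replicates 1 and 2 were nearly alike.

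Members and lists were chosen with earlier results of these data known. Named genes are all members, up to 4 genes per list with the smallest p, other markers, and 4 nearest genes each for Myc and Mycn; Hes1 and the nearest genes of Mxd4 were added after the values were seen. Promoters are RefSeq's, build GRCm38.p6.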

Additional observations from a re-analysis of the deposited data

How the results depend on the processing

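The count of members past the threshold was 0 in 15 of 15 alternatives, and at an unadjusted p under 0.05 it ranged from 1 to 5. Over all genes the count past the threshold was 0 in the main analysis and became 1 with array weights and 0 to 51 when each array was left out (51 without wild-type replicate 3, 3 without knockout replicate 1, 1 without knockout replicate 3), in no case with a member of the network. The log2 fold changes of Mxd4, Mycn, Mycl, Max, Mxd1, Mxd3 and Mxi1 kept their direction in every alternative that could be computed. Each alternative read a member by its probe set with the highest mean or by the mean of its probe sets. Single other probe sets went the opposite way for Mxd1 (-0.24), Mxd3 (-0.11), Mxi1 (-0.20) and Mycn (0.26 and 0.29, at background). For Mycl 13 alternatives could be computed, since it fell under the filter at the 60th percentile and under the filter with the mean of probe sets. Mnt changed sign with quantile normalization (0.16), array weights (0.05) and the mean of probe sets (0.05), and with arrays left out ranged from -0.11 to 0.05. Mga changed sign with the mean of probe sets (-0.15) and ranged from -0.07 to 0.24 with arrays left out, and Myc ranged from -0.02 to 0.21; these 3 differences are all close to 0. With the replicate number as a block (replicate block), Mxd4 was at -1.07 with an unadjusted p of 0.00713 by limma. Mycn was then at -0.85 with an unadjusted p of 0.0505 by limma. The labels do not say that the numbers pair the arrays. Deviations of same-numbered arrays from their group means correlated at -0.02, 0.09 and -0.04, which cannot show whether they are paired. With the highest value of the 17 genes of other tissues as background limit, 8.74 from Mbp, a gene that lymphocytes also transcribe, 2 member probe sets were above it on all arrays; with the limit of 2.51 without Mbp, added after the values were seen, there were 17, as with 2.84. No pseudocount was tried, because the values are logarithms.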
